A study of Mus musculus with 18 samples.

Results

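Tdgf1, Gdf3, Cer1 and Pmepa1 are 4 genes of the Nodal pathway. All probes that the array tables name for them, by current symbol or older synonym, were taken: 10 of the 15247 gene probes on the array, for 4 of 6058 named genes. Tdgf1, Gdf3 and Pmepa1 had 1 probe each, and Cer1 had 7. The Pmepa1 probe carries the older name of the gene, Nedd4 WW binding protein 4.

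The cells were embryoid bodies, aggregates in which embryonic stem cells differentiate, grown from the mouse line i-Mixl1. By its name this line carries an inducible Mixl1, a homeobox gene of the primitive streak, but the labels give neither the construct nor the number of clones. Doxycycline (DOX) was given at 0.1 ug/ml to the treated cultures from 1 day after plating, and the controls, of the same line, had none. Embryoid bodies were harvested at day 2, day 3 or day 4, and each of the 6 combinations of day and treatment had 3 biological replicates, 18 samples in all. No probe is named for Mixl1, so its induction was not measured here.

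Each of 9 arrays held the DOX and the control sample of one day and replicate number, one in the red and one in the green channel. Which channel is which is not settled. The deposited value table gives the DOX samples the red channel on every array, whereas the dye labels give them Cy3, the dye normally read in the green channel. Ratios are therefore red over green. By the value table a ratio above 1 is a higher level with DOX, and by the dye labels a lower one. All arrays run the same way, so dye and treatment cannot be told apart within a day. A dye effect that is constant over days drops out of the differences between days. No array held samples of more than one day, so in the level of a channel day and array batch cannot be told apart.

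Nodal is a secreted factor of the TGF-beta family that, in the early embryo, maintains the epiblast and specifies the primitive streak, mesoderm and endoderm. It acts through activin receptors together with a co-receptor of the Cripto family, and its signal is carried by Smad2 and Smad3 with Smad4. Tdgf1 encodes Cripto, the membrane-anchored co-receptor. Gdf3 is a related secreted ligand made by pluripotent stem cells. Cer1 encodes Cerberus-like, a secreted antagonist that binds Nodal and BMPs. Pmepa1 is a membrane protein induced by TGF-beta signals that binds receptor-activated Smads and limits signalling.

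The promoters of Tdgf1 and Cer1 are shown because the inducible factor of the line is a homeodomain protein, a class that recognises the core TAAT. RefSeq sequence was held for these 2 of the 4 genes on build GRCm38.p6. The 250 bases before the annotated start are given 5′ to 3′ on the gene's strand, with TAAT on either strand in capitals. Tdgf1 lies on the minus strand at chr9:110946159-110946408, and Cer1 on the minus strand at chr4:82885152-82885401.
Tdgf1: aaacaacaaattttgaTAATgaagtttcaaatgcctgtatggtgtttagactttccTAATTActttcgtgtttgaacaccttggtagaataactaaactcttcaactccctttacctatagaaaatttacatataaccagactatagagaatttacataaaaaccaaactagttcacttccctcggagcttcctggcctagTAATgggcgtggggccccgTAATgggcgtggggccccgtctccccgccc
Cer1: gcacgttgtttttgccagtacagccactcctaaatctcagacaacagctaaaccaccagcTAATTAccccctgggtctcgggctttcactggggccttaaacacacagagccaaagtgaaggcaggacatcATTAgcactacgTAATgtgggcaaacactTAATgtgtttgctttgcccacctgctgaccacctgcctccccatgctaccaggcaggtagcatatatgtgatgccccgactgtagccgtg
Both windows held 5 matches to TAAT, counting both strands and overlapping matches within TAATTA. The median over 32851 promoter windows of this length was 1 match, and 54.9% held at least 1. Neither window held the paired homeodomain site (TAAT, any 3 bases, ATTA), which was present in 0.463% of all windows. Each held 1 match to the Smad box CAGAC, as did 42.2% of all windows at least once. A match of letters is a description of the window and no evidence of binding.

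Ratios were log2 values after background modelling and loess within each array. They were tested with limma over all probes, and a probe passed at a Benjamini-Hochberg adjusted p under 0.05. At day 2, 2 of the 10 probes passed, both with a ratio above 1, where 3.30% of all probes tested passed and 1.38% did so above 1. At day 3, 2 passed, 1 each way, against 20.1% of all probes. At day 4, 3 passed, all with a ratio below 1, against 17.4% of all probes, or 9.45% below 1. The median ratio of the 10 probes stayed near 1 at each day (log2 0.11, -0.05 and -0.03), where the median of all probes lay within 0.004 of 0. The genes thus have to be read one by one, as the plot of ratios by array shows.

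**Figure D1:**
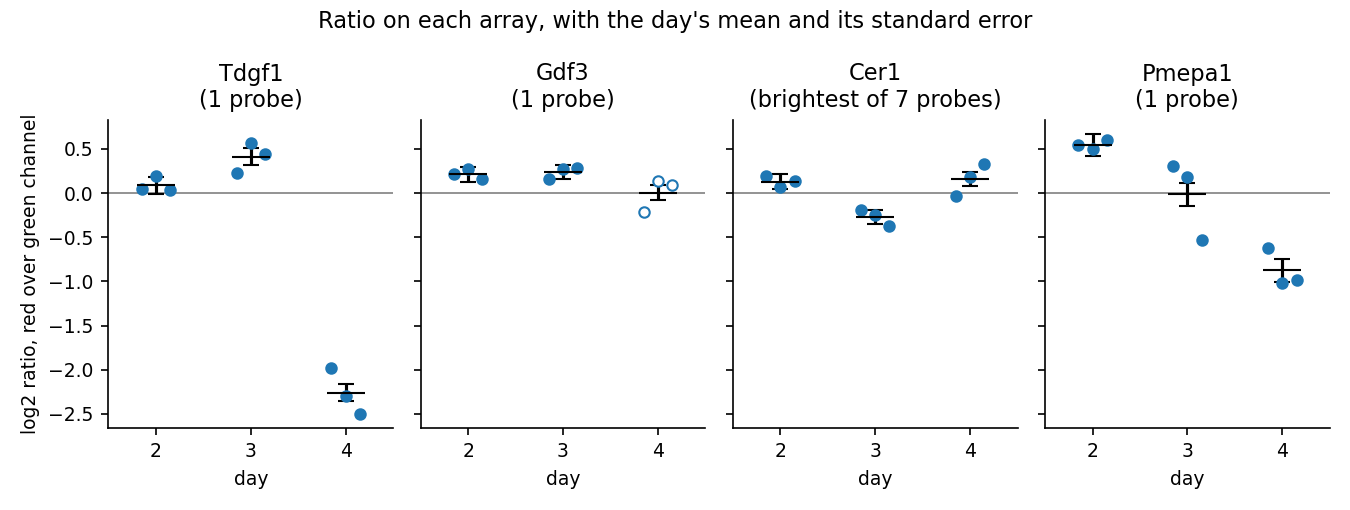
Log2 ratio of the red over the green channel (y axis) at day 2, day 3 and day 4 (x axis) for the brightest probe of each gene. Points are single arrays, open where neither channel was well above background on any array of that day. Bars are the day's mean with the standard error of the fit. Tdgf1 and Pmepa1 lie below 0 on all 3 arrays at day 4, at log2 -2.26 and -0.88 on average.

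Tdgf1, the co-receptor, had the ratio farthest from 1 among the 10 probes, at day 4. At day 2 its log2 ratios were 0.04, 0.19 and 0.03. At day 3 they were 0.23, 0.57 and 0.44. At day 4 they were -1.98, -2.30 and -2.50. The 2 earlier days lie at or above 0 on every array, and the 3 arrays of day 4 lie far below all of the others, with no overlap.

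The mean ratio of Tdgf1 was log2 0.09 ± 0.098 (n = 3) at day 2, which did not pass in limma (adjusted p = 0.687). Here and below the SE of a ratio is that of the limma fit. It rests on 1 spread shared by all 9 arrays, so it is the same at each day. It was 0.41 ± 0.098 at day 3, a 1.33-fold higher red signal (adjusted p = 0.00856). It was -2.26 ± 0.098 at day 4, a 4.79-fold higher green signal (adjusted p = 2.23e-09). The day 3 call was lost when the arrays were centred on the median in place of loess (adjusted p = 0.0631) and without replicate 2 (0.146). It was also lost with the channels as separate samples, a run that ignores their pairing on an array. The day 4 call was kept in each alternative run (adjusted p up to 0.0290).

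The turn of Tdgf1 between days was itself tested. From day 3 to day 4 the log2 ratio fell by 2.67 ± 0.14, a 6.37-fold change (limma, adjusted p = 1.58e-08), in a comparison that 6.58% of all probes passed. From day 2 to day 4 it fell by 2.35 ± 0.14, a 5.10-fold change (adjusted p = 8.24e-08), where 6.56% of all probes passed, 3.15% with a fall. From day 2 to day 3 the difference of 0.32 ± 0.14 did not pass (adjusted p = 0.250). Of the 10 probes, 4 passed for day 4 against day 3 and 3 for day 4 against day 2. With limma 0 of 10 passed for day 3 against day 2, where 3.21% of all probes did, and 4 of the 10 had an unadjusted p under 0.05.

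The red and the green level of an array were its mean log2 intensity, scaled between arrays, moved up or down by the ratio. They share that mean and are not independent. Over all probes, red and green deviations from the day's mean correlated within an array (Pearson's r from 0.80 to 0.91). Levels are compared between days, where day and array batch cannot be told apart, and not between genes. In the red channel Tdgf1 stood at 12.19, 12.00 and 12.18 on day 2, then at 12.82, 12.10 and 11.82 on day 3 and lastly at 11.65, 9.76 and 9.98 on day 4. The 3 red values of day 4 lie below all 6 of the earlier days, with replicate 1 the highest of the 3.

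In the green channel Tdgf1 stood at 12.15, 11.81 and 12.15 on day 2, then at 12.59, 11.53 and 11.39 on day 3 and lastly at 13.64, 12.06 and 12.48 on day 4. The green values of the days overlap. Replicate 1 was the highest at day 3 and at day 4 in both channels, so the ratio within an array varied less than the level.

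By limma the red level fell by 1.79 ± 0.45 from day 3 to day 4, which did not pass (adjusted p = 0.0961), and differed by -1.66 ± 0.45 between day 4 and day 2, which did not pass either (0.0579). Both passed without replicate 1 (adjusted p = 0.0127 and 0.00345). The fall from day 2 also passed with a smaller offset in the background model (0.0345) and without scaling between arrays (0.0422). The green level differed by 0.89 ± 0.43 and 0.69 ± 0.43 over the same spans and did not pass (adjusted p = 0.465 and 0.477).

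A further 34 probes carry a Tdgf1 pseudogene symbol after symbols were matched to the gene table, 31 as Tdgf1-ps1 and 3 as Tdgf1-ps2. They are not counted among the 10. Cripto pseudogenes are near-copies of the transcript, so cDNA probes of these loci and of Tdgf1 can share signal. Symbols were in part updated from older names and clone sequences are not given, so the identity of the 34 was not checked. At day 4, 3 of the 34 were lower and 0 higher past the test, with a median log2 ratio of 0.01 and a range of -0.60 to 0.22. This count is near the array-wide share, as 9.45% of all probes passed with a lower ratio. At day 3, 9 were higher and 0 lower, with a median of 0.19. There 20.1% of all probes passed in either direction, and 45.4% of those were higher. At day 2, 1 was lower and 0 higher, where 3.30% of all probes passed in either direction. The lowest of the 34 at day 4 is well above the log2 -2.26 of the Tdgf1 probe itself. With their identity unchecked, this does not show how the pseudogenes behaved or whether signal was shared.

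Gdf3, the ligand, behaved differently: its level was lower on the arrays of each later day, in both channels together. Its ratio at days 2 and 3 was close to 1. In the red channel it stood at 10.72, 11.42 and 10.77 on day 2, then at 8.39, 9.20 and 9.50 on day 3 and lastly at 6.37, 6.56 and 6.56 on day 4. In the green channel it stood at 10.51, 11.15 and 10.61 on day 2, then at 8.23, 8.93 and 9.22 on day 3 and lastly at 6.58, 6.43 and 6.47 on day 4. The 3 days do not overlap in either channel, and both channels step down in the same order.

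The red level of Gdf3 fell by 1.94 ± 0.29 from day 2 to day 3, a 3.84-fold drop (limma, adjusted p = 0.0118), in a comparison that 1.06% of all probes passed, 0.512% with a fall. The green level fell by 1.97 ± 0.26, a 3.91-fold drop (adjusted p = 0.0114), where 0.748% of all probes passed, 0.459% with a fall. Gdf3 was the 1 member probe of 10 past the test in each channel over this span. These calls were lost when any 1 replicate was left out (adjusted p from 0.0812 to 0.224), with values from -1.74 to -2.28 in red and from -1.81 to -2.25 in green.

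At day 4 Gdf3 was not well above background, in red or in green, with a signal-to-noise ratio of at most 0.23 on any array, where 1.4 was taken as the limit. Its level there is not known, so a floor was set on each dim array. The floor was the higher of the lowest signal of any probe past the limit and the probe's own signal. Against it the mean day 2 level was 20.0-fold higher in red and 18.9-fold higher in green. The mean day 3 level was 5.21-fold higher in red and 4.83-fold higher in green. The mean floor was close to the mean measured (log2 6.65 against 6.50 in red, 6.52 against 6.49 in green). Other probes under the limit lay above it, such as Pmepa1 in red at 7.29 on array 1 of day 4. These folds are thus not strict lower bounds.

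The fall of Gdf3 from day 3 to day 4 passed in both channels (limma, adjusted p = 0.00198 in red and 0.00196 in green). Its size is known only roughly, from the folds above. In red 1.79% of all probes passed over this span, 0.794% with a fall, and in green 2.27%, 1.10% with a fall. From day 2 to day 4 the adjusted p was 2.93e-05 in red and 4.44e-05 in green, where 6.76% and 6.14% of all probes passed (3.49% and 3.18% with a fall). The fall from day 3 was lost without replicate 3 (0.103 in red and 0.102 in green) and, in green, without replicate 2 (0.0665), and that from day 2 was kept in each alternative run. At day 3 the probe was past the signal-to-noise limit on 2 of 3 arrays in each channel, with replicate 1 at 0.002 in red and 0.039 in green.

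The ratio of Gdf3 was log2 0.21, 0.27 and 0.16 on the arrays of day 2 and 0.16, 0.27 and 0.28 on those of day 3. All 6 values are above 0 by a similar small amount. The means were 0.21 ± 0.083 (SE of the fit, n = 3, adjusted p = 0.199 in limma) and 0.24 ± 0.083 (adjusted p = 0.0541), and neither passed. The day 3 ratio passed under several alternatives, among them plain background subtraction (0.32, adjusted p = 0.0220). The day 4 ratio rests on background in both channels and is not read.

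**Figure D2:**
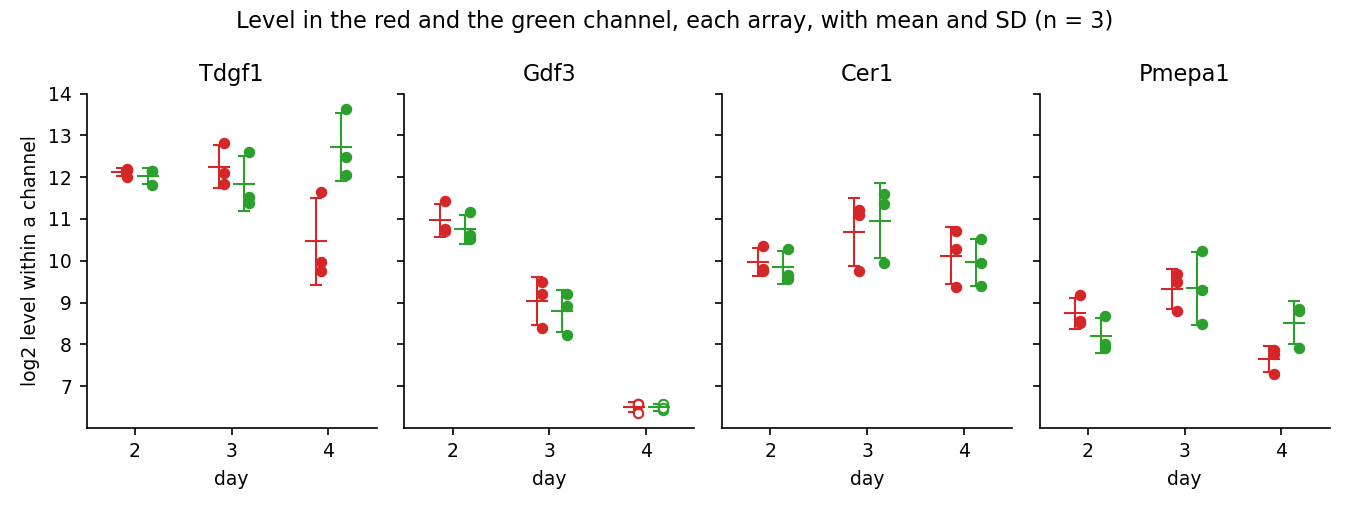
Log2 level within the red and within the green channel (y axis) by day (x axis) for the brightest probe of each gene. Points are single samples, bars the mean and SD of 3, and open points mark a channel not well above background on any array of that day. Gdf3 steps down in both channels to background at day 4. The red values of Tdgf1 and Pmepa1 at day 4 lie below those of the earlier days, and their green values overlap.

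Bulk RNA from embryoid bodies cannot tell fewer cells of a type from less RNA per cell. Of 11 pluripotency markers listed, 5 were measured (Pou5f1, Zfp42, Klf4, Dppa5a and Dppa3). Their mean log2 level went from 10.84 at day 2 to 10.19 at day 3 and 8.97 at day 4 in red, and from 10.86 to 9.94 and 9.03 in green. The 5 did not move alike from day 2 to day 4, by highest signal-to-noise ratio. Klf4 rose from 0.667 to 4.386 in red and from 1.721 to 5.273 in green. Pou5f1 fell in red (85.2 to 28.4) and not in green (185 to 205). Zfp42, Dppa5a and Dppa3 fell in both channels. At least 4 of the 5 were above background in either channel at each day. By ratio, 0 of the 5 passed at day 2, 4 were higher and 1 lower at day 3, and 2 were higher and 1 lower at day 4. Of all probes 3.30%, 20.1% and 17.4% passed at these days. Among those higher, Klf4 at day 3 and Zfp42 at day 4 were close to the signal-to-noise limit (at most 1.43 and 1.78). The one lower was Pou5f1, which encodes the pluripotency factor Oct4, at log2 -0.76 ± 0.13 at day 3 and -1.90 ± 0.13 at day 4 (limma, adjusted p = 9.74e-04 and 2.06e-07). Both measured markers of the primed epiblast, Dnmt3b and Otx2, were lower at day 3 and at day 4, with Otx2, a homeobox factor of the epiblast, at -1.26 ± 0.14 at day 4 (adjusted p = 1.13e-05). Their mean log2 level went from 11.39 to 10.44 and 9.56 in red and from 11.52 to 11.38 and 10.52 in green.

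Of 9 markers of visceral and extraembryonic endoderm, a tissue in which Cer1 is made in the mouse embryo, 4 were measured. At day 4, 3 of these passed with a higher ratio, among them Ttr, which encodes transthyretin, at log2 1.61 ± 0.12 (limma, adjusted p = 2.35e-07). For this list and those that follow, 3.30%, 20.1% and 17.4% of all probes passed at days 2, 3 and 4. None of the 5 definitive endoderm markers was among the named probes. Of 7 mesoderm markers 3 were measured (Pdgfra, Mesp2 and T). Of these, Pdgfra and Mesp2 were higher at day 3 and lower at day 4. At day 3 the Pdgfra signal was not well above background (signal-to-noise ratio of at most 0.113), so its ratio there is not read. T, the primitive streak gene Brachyury, stayed under the signal-to-noise limit throughout. All 3 measured hematopoietic markers (Gata1, Hbb-y and Hba-x) were higher at day 4. Of the neuroectoderm markers Nes and Tubb3, 2 were lower at day 3 and Nes alone at day 4. Of 3 fibroblast markers 1 was higher at day 2, 1 lower at day 3 and 1 lower at day 4. The one at day 4, Dcn, was under the signal-to-noise limit in both channels (at most 0.607), so its ratio there is not read. The one at day 3, Lum, only just reached the limit (at most 1.404). The part of any of these cells in the values of the 4 genes was not tested.

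Pmepa1, the Smad inhibitor, went from a ratio above 1 to one below 1. Its log2 ratios were 0.54, 0.50 and 0.60 at day 2. Those of day 3 were 0.31, 0.18 and -0.53. At day 4 they were -0.63, -1.02 and -0.98. The arrays of day 2 and day 4 are each of one sign and lie wholly apart, and those of day 3 are mixed, with replicate 3 apart from the other two.

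The mean was log2 0.55 ± 0.13 (SE of the fit, n = 3) at day 2, a 1.46-fold higher red signal (limma, adjusted p = 0.0271). At day 3 it was -0.01 ± 0.13 (adjusted p = 0.951). At day 4 it was -0.88 ± 0.13, a 1.84-fold higher green signal (adjusted p = 1.79e-04). In the authors' scaled values, which have no added offset, the day 4 mean was larger (-1.61), as it was with plain subtraction (-1.41). With the channels of an array treated as separate samples, which ignores their pairing, the day 4 call was lost (adjusted p = 0.757) at the same mean. In that run the probes passing at day 4 went from 2656 to 160 over the whole array. The day 2 call was lost under plain subtraction (adjusted p = 0.131), a smaller offset (0.0723), the authors' scaled values (0.0615), and without replicate 1 (0.128) or replicate 2 (0.159).

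The log2 ratio of Pmepa1 fell by 1.42 ± 0.18 from day 2 to day 4, a 2.68-fold change (limma, adjusted p = 1.22e-04), and the difference was -2.38 in the authors' scaled values. It fell by 0.86 ± 0.18 from day 3 to day 4 (adjusted p = 0.00660), a call lost without replicate 2 (-0.69, adjusted p = 0.238) and of -1.59 in the authors' scaled values. The fall of 0.56 ± 0.18 from day 2 to day 3 did not pass (adjusted p = 0.114).

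Within the red channel Pmepa1 stood at 8.55, 9.17 and 8.51 on day 2, then at 8.79, 9.49 and 9.69 on day 3 and lastly at 7.29, 7.77 and 7.88 on day 4. All red values of day 4 lie below those of the earlier days. Within the green channel it stood at 8.02, 8.68 and 7.90 on day 2, then at 8.48, 9.30 and 10.22 on day 3 and lastly at 7.92, 8.79 and 8.86 on day 4, and these values overlap.

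By limma the red level of Pmepa1 fell by 1.68 ± 0.28 from day 3 to day 4 (adjusted p = 0.0171) and by 1.10 ± 0.28 from day 2 to day 4 (0.0452). The green level differed by -0.82 ± 0.44 and 0.32 ± 0.44, and neither passed (adjusted p = 0.538 and 0.800). With 1 replicate left out, the red call from day 2 to day 4 was lost each time (adjusted p from 0.0960 to 0.241), and that from day 3 was lost without replicate 2 (0.142) or 3 (0.262). Without scaling between arrays both were lost (0.0550 and 0.0640). In red at day 4 the probe passed the signal-to-noise limit on 2 of 3 arrays and reached 1.92 at most, so the ratio there rests on a red signal close to background.

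Cer1, the antagonist, is represented by 7 clones in different blocks of the array, and these did not give one pattern. They are named here by clone. H3011A08, H3138A02 and H3067G10 are bright, and H3110E11, H3061H03, H3063B04 and H3052C09 are dim. The table marks the PCR product of H3061H03 as multiple bands. Which part of the transcript each clone covers is not given in the sources used here.

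H3011A08, the brightest, had log2 ratios of 0.19, 0.07 and 0.13 on day 2. They were -0.19, -0.25 and -0.37 on day 3 and -0.03, 0.18 and 0.32 on day 4. The arrays of day 3 are all below 0 and below every array of the other days. The mean was 0.13 ± 0.083 at day 2 (adjusted p = 0.449), -0.27 ± 0.083 at day 3 (limma, adjusted p = 0.0320) and 0.16 ± 0.083 at day 4 (0.217). The ratio rose by 0.43 ± 0.12 from day 3 to day 4 (adjusted p = 0.0398), and its fall of 0.40 ± 0.12 from day 2 to day 3 did not pass (0.0803).

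The H3011A08 call at day 3 was lost under plain subtraction (adjusted p = 0.0510), a smaller offset (0.0514), the authors' scaled values (0.0611) and a fit of that day alone (0.0828). It was also lost without replicate 2 (0.163) or replicate 3 (0.185), and the difference from day 3 to day 4 was lost in both of these as well (0.292 and 0.380).

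H3138A02, almost as bright, had log2 ratios of 0.30, 0.0039 and 0.07 on day 2. They were -0.03, 0.03 and 0.05 on day 3 and 0.14, 0.48 and 0.15 on day 4. These values overlap between day 2 and the other days. Its means of 0.12 ± 0.088, 0.01 ± 0.088 and 0.26 ± 0.088 did not pass at any day in limma (adjusted p = 0.493, 0.928 and 0.0571). The day 4 ratio passed with every negatively flagged spot left out (0.0385) and among probes above the median intensity alone (0.0298).

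H3067G10 had another pattern, from above to below 0. Its log2 ratios were 0.33, 0.54 and 0.45 on day 2, -0.16, -0.13 and 0.23 on day 3, and -0.31, -0.78 and -0.73 on day 4. No 2 days overlap. The means were 0.44 ± 0.10 (limma, adjusted p = 0.0265), -0.02 ± 0.10 (0.910) and -0.60 ± 0.10 (6.90e-04). The log2 ratio fell by 1.04 ± 0.15 from day 2 to day 4 (adjusted p = 2.92e-04) and by 0.58 ± 0.15 from day 3 to day 4 (0.0212). The fall from day 2 to day 4 was kept in each alternative run (limma, adjusted p up to 0.0318). The day 2 call was lost without replicate 2 (0.206) or 3 (0.0897), and it passed in only 5 of 11 other settings. Those where it was lost include plain subtraction (adjusted p = 0.138), a smaller offset (0.0723) and median centring (0.0711). The call from day 3 to day 4 was lost without replicate 2 or 3 (0.220 and 0.264), with plain subtraction (0.0773) and with a smaller offset (0.0550). The day 4 call was kept without each replicate (adjusted p from 9.30e-04 to 0.0366). It was lost with the channels as separate samples (0.987), a run that ignores their pairing on an array.

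At day 4 the 3 bright Cer1 probes thus stood at log2 0.16, 0.26 and -0.60, and the arrays of H3067G10 lie below all arrays of the other two. The difference between probes was not tested. The signal of H3067G10 was well above background on every array, in both channels.

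The 4 dim Cer1 probes had ratios between log2 -0.22 and 0.09 at day 2, between -0.19 and -0.09 at day 3, and between -0.16 and 0.01 at day 4. With limma 0 of the 4 passed at any day, and 0 had an unadjusted p under 0.05. H3052C09 stayed under the signal-to-noise limit throughout, and H3063B04 did so in red.

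For Cer1 levels within a channel, over the 7 probes and 3 pairs of days, 0 of 21 differences passed in limma in either channel, and 1 in each channel had an unadjusted p under 0.05. Of all probes 1.06 to 6.76% passed in red and 0.748 to 6.14% in green over these spans, so a count of 0 is near the array-wide share. They ran from log2 -0.75 to 0.72 in red and from -1.0 to 1.12 in green. In red H3011A08 stood at 9.76, 10.35 and 9.80 on day 2, then at 9.74, 11.10 and 11.22 on day 3 and lastly at 9.37, 10.70 and 10.28 on day 4. Replicate 1 is the lowest at days 3 and 4, and the days overlap.

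**Figure D3:**
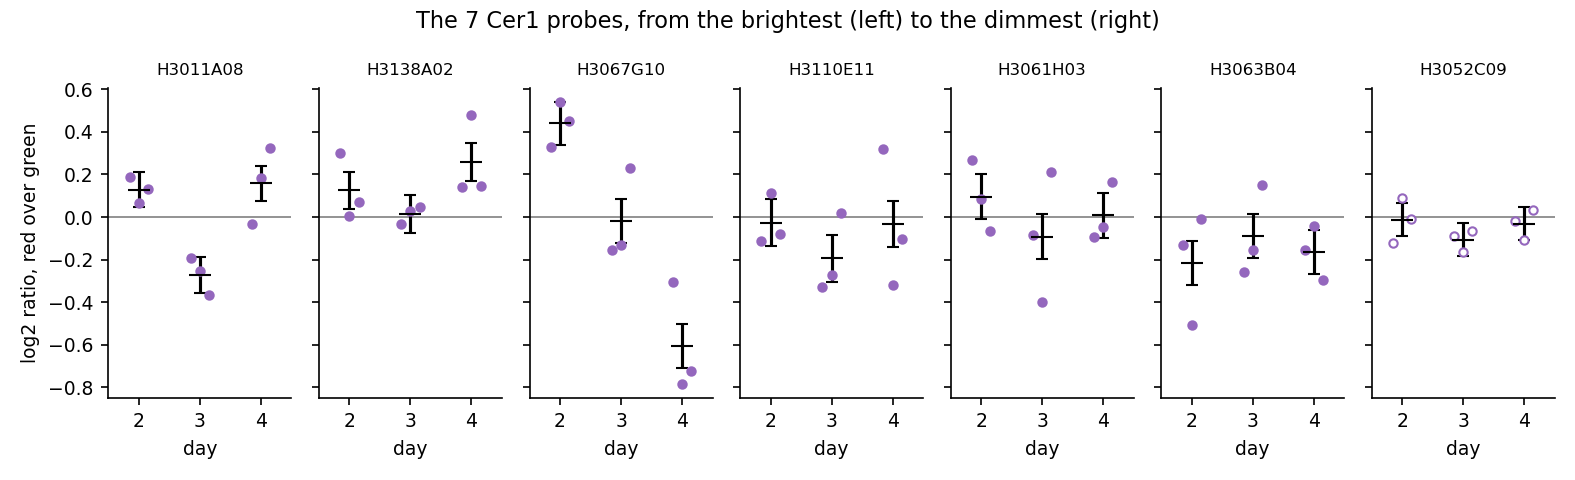
Log2 ratio of red over green (y axis) by day (x axis) for each of the 7 Cer1 probes, in order of brightness. Points are single arrays, open where neither channel was well above background on any array of that day, and bars are the day's mean with the standard error of the fit. H3067G10 goes from 0.44 to -0.60, H3011A08 dips to -0.27 at day 3, and the 4 dim probes stay within 0.22 of 0 on average.

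In the authors' deposited table the mean ratio of red over green was 1.07, 1.36 and 0.201 for Tdgf1 at days 2, 3 and 4, and 1.71, 1.03 and 0.328 for Pmepa1. In the authors' deposited table Gdf3 stood at 1.18 and 1.18 at days 2 and 3, with no entry at day 4. The p-values in the authors' deposited table ran from 0.0640 to 0.995 over all entries of the 4 genes. The lowest were those of Pmepa1 (0.0640) and Tdgf1 (0.0750) at day 4.

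Of 42 other genes listed for the pathway, 14 were measured, each read from its brightest probe. At days 2 and 3, 4 of the 14 were under the signal-to-noise limit in both channels (Tgfb2, Tgfbr2, Fstl3 and T), and at day 4 T alone. That these did not pass there is thus no sign of an unchanged level. Among them 1 was higher and 0 lower at day 2, 1 higher and 2 lower at day 3, and 2 higher and 5 lower at day 4. Of all probes 3.30%, 20.1% and 17.4% passed at these days, and the day 3 count is near that share. The median log2 ratio of the 14 was 0.06, -0.06 and 0.02 at the 3 days, against medians within 0.004 of 0 for all probes. Nodal itself, Lefty1 and Lefty2 were not among the named probes.

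Of 8 ligand and processing genes only Tgfb2, a TGF-beta ligand, was measured, at log2 0.38 ± 0.080 at day 4 (limma, adjusted p = 0.00410). Of 7 receptor genes 3 were measured. Acvr2b, a type II receptor used by Nodal, was lower at day 4 (-0.72 ± 0.097, adjusted p = 8.53e-05), and Tgfbr1 and Tgfbr2 did not pass at any day. The PCR product of the Tgfbr2 probe is marked as no product, and at day 4 its green signal was under the limit, so its ratio is not read. Of 5 antagonists only Fstl3 was measured, and it did not pass at any day. At day 4 its red signal was under the limit.

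Of 13 Smads, partners and inhibitors 7 were measured. Smad3, a carrier of the signal, was lower at day 3 (-0.28 ± 0.087, adjusted p = 0.0354 in limma) and higher at day 4 (0.31 ± 0.087, adjusted p = 0.0202). Smad4, its common partner, was lower at day 4 (-0.28 ± 0.081, adjusted p = 0.0283), and its dimmer probe gave -0.33 (0.0407). Tgif1, a co-repressor that binds Smads, was lower at day 4 (-0.56 ± 0.083, adjusted p = 2.16e-04). Its relative Tgif2 was lower at day 3 (-0.39 ± 0.11, adjusted p = 0.0257) and at day 4 (-0.65 ± 0.11, 8.84e-04). Drap1, Smurf1 and Smurf2 did not pass at any day.

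Of 9 transcription factor targets 2 were measured. Eomes, a T-box factor of the primitive streak, was higher at day 2 (0.97 ± 0.11, adjusted p = 3.41e-05 in limma) and day 3 (0.88 ± 0.11, 3.24e-05) and lower at day 4 (-1.29 ± 0.11, 6.82e-07). The signs of Eomes at day 3 and day 4 are those of Tdgf1. T did not pass at any day, and its signal was under the limit throughout, so its ratio is not read.

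**Figure D4:**
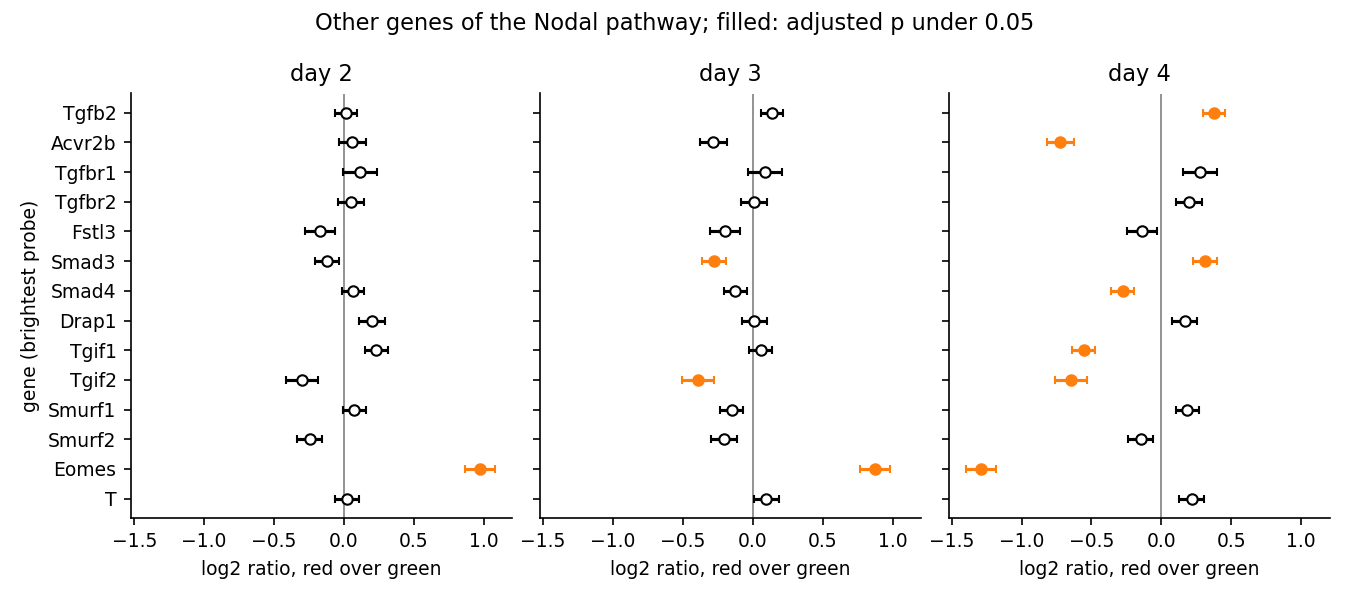
Log2 ratio of red over green (x axis) with the standard error of the fit for the brightest probe of 14 other Nodal pathway genes (y axis), by day. Filled points passed at an adjusted p under 0.05. Eomes is at 0.97 at day 2 and -1.29 at day 4, and 5 genes are lower at day 4.

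The probes most like each gene were found by Pearson's r of the log2 ratio over the 9 arrays, among about 5380 named probes above the median intensity. The arrays come from 3 days and both probes of a pair share each array, so r is a description only. For Tdgf1 the nearest were Pla2g4c, Irf1, Tenm4, Eomes and Upp1 (r from 0.974 to 0.983). Their day 4 ratios ran from log2 -1.54 to -0.59, all smaller in size than that of Tdgf1. For Pmepa1 they were Ppp1r7, Pou5f1, Tmem59, Cenpa and Pcx (r from 0.968 to 0.987), and Pou5f1 was the only one of the 5 with a day 4 ratio larger in size than that of Pmepa1.

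For Gdf3 the nearest were Tmed5, Slc6a8, Pole, Abcc9 and Nup160 (r from 0.932 to 0.959). None of these 5 passed at day 4, and the Gdf3 ratio there is background. For the brightest Cer1 probe they were Ssx2ip, Ifi30, Dynll1, Rgs10 and a probe named for C/EBP gamma (r from 0.931 to 0.946), and no other Cer1 probe was among the candidates, since the gene itself was left out.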

How the data were processed

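Spotted mouse cDNA arrays of 17327 spots were read in 2 channels. Spot intensity in the deposited day tables is linear and not normalized, with local background taken off the foreground median, per the file headers. The same deposited tables hold a signal-to-noise score for each channel and a flag. The authors' deposited fold, a ratio of red over green averaged over 3 arrays, and their deposited p-value rest on channels scaled to one mean, per the notes in the files. RNA was amplified in one round before labelling, per the labels' protocols, which can change levels of single transcripts. Each value-table column was a constant multiple of the red (DOX) or green (control) intensity of its array, within a relative 1e-09. The 45 other per-array columns were not used.

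Of the 15247 gene probes 9415 carried a symbol from the array tables, of 6058 different ones. Of these, 4143 were current, 3913 were updated through the RefSeq gene table and 1359 kept. Processing used R 4.3.3 and limma 3.58.1: normexp with an offset of 50, spots flagged at -75 or below left out, and loess within each array. One fit with a term per day over the 9 arrays (6 residual degrees of freedom) gave the days and their differences, two-sided. Levels used the single channels after Aquantile scaling, 9 samples per channel. The precision is limited by 3 arrays per group. Sample medians of intensity lay between 209 and 491, and a signal-to-noise score of 1.4 was reached by 54.3 to 70.1% of gene probes.

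Every probe of the 4 genes was named, with the brightest standing for a gene. Of the pathway genes those past the test were named, and so were the 5 probes most like each gene. The members and lists were chosen with earlier results of these data known. The procedure was tested on simulated data. Alternatives covered background, normalization, flags, the value table, brightness, single replicates, the replicate block, separate channels and single-day fits.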

Additional observations from a re-analysis of the deposited data

Results flagged for a closer look

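In 4 probes the ratio of red over green differed between days by the test of the difference itself, in limma over all probes. For Tdgf1 the log2 difference was -2.67 for day 4 against day 3 and -2.35 for day 4 against day 2. For Pmepa1 it was -0.86 for day 4 against day 3 and -1.42 for day 4 against day 2. For Cer1 it was 0.43 by the probe H3011A08 for day 4 against day 3, and -0.58 and -1.04 by the probe H3067G10 for day 4 against day 3 and day 2. The 2 Cer1 probes moved in opposite directions from day 3 to day 4 on the same arrays, and neither call from day 3 was kept when replicate 2 or replicate 3 was left out (adjusted p from 0.220 to 0.380). Groups of 3 arrays were too small for a search for single outlying arrays.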

How the results depend on the processing

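Over all alternatives the Tdgf1 ratio at day 4 ran from -2.40 to -2.14, its difference from day 3 from -2.90 to -2.54 and from day 2 from -2.51 to -2.26, and each stayed past the test. So did the differences between day 4 and day 2 of Pmepa1 (-2.38 to -1.34) and of the Cer1 probe H3067G10 (-1.25 to -0.91). Of the ratios of the 6 probes described singly (the 4 dim Cer1 probes left out) 387 kept direction and side of the threshold, 38 lost the call, 8 gained it and 20 turned in sign. For the 4 dim probes 0 of 265 ratios under the alternatives passed (lowest adjusted p 0.121), and for Cer1 levels 0 of 147 in red (0.196) and 0 of 147 in green (0.114). For each of the following the cause was not tested.

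Plain subtraction gave Pmepa1 0.76 at day 2 (call lost) and 0.0357 at day 3 (sign turned), Cer1 H3011A08 -0.29 at day 3 and 0.46 for day 4 against day 3 (both lost), and Gdf3 0.32 at day 3 (gained). An offset of 16 gave Pmepa1 0.60 at day 2, H3011A08 -0.28 at day 3 and 0.44 for day 4 against day 3 (all lost), Gdf3 -0.0133 at day 4 (turned), and Tdgf1 in red -1.69 for day 4 against day 2 (gained). Median centring gave Tdgf1 0.33 at day 3 and H3011A08 0.42 for day 4 against day 3 (lost), and turned H3011A08 for day 4 against day 2 (-0.0234) and H3138A02 at day 3 (-0.0392). The day 2 call of H3067G10 was lost under plain subtraction (0.49), an offset of 16 (0.46) and median centring (0.43). Its call for day 4 against day 3 was lost under plain subtraction (-0.65) and an offset of 16 (-0.61). Loess per print block turned Pmepa1 (0.0148), H3067G10 (0.0060) and H3138A02 (-0.13) at day 3 and H3138A02 for day 4 against day 2 (-0.0046), and Gdf3 at day 3 passed (0.24). With every negative flag left out, or above-median probes alone, Gdf3 at day 3 (0.24), H3011A08 for day 3 against day 2 (-0.40) and H3138A02 at day 4 (0.26) passed. The value table gave Pmepa1 0.77 at day 2, H3011A08 -0.29 at day 3 and 0.43 for day 4 against day 3 (all lost) and -0.0202 for day 4 against day 2 (turned). The run with the channels as separate samples, no replicate block, ignores the pairing within an array. In it Pmepa1 at day 2 (0.55) and day 4 (-0.88), H3011A08 (-0.27) and Tdgf1 (0.41) at day 3 were lost. With 1 day fitted alone H3011A08 at day 3 (-0.27) was lost.

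Same-numbered arrays did not all deviate together across days: r of their deviations ran from -0.15 to 0.20 for ratios, -0.32 to 0.45 for red levels and -0.27 to 0.43 for green levels, with the highest r of the levels for number 1 between days 3 and 4. The numbers were therefore not taken to pair samples between days. With the replicate block H3011A08 for day 4 against day 3 (0.43) was lost, and Tdgf1 in red for day 4 against day 3 (-1.79) and day 2 (-1.66) passed. Without scaling between arrays, where the median of all probes in red moved by -0.20 from day 2 to day 3, Tdgf1 in red was -0.19 for that span (turned) and -1.83 for day 4 against day 2 (gained), and Pmepa1 in red was -1.70 and -1.34 for day 4 against day 3 and day 2 (lost).

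Without single replicates the ratios ran, for Pmepa1, from 0.52 to 0.57 at day 2, -0.18 to 0.25 at day 3 and -1.07 to -0.69 for day 4 against day 3. For H3011A08 they ran from -0.31 to -0.22 at day 3, 0.30 to 0.56 for day 4 against day 3 and -0.0534 to 0.15 against day 2. For Tdgf1 at day 3 they ran from 0.33 to 0.50. For Gdf3 they ran from -0.0595 to 0.11 at day 4 and -0.0234 to 0.0657 for day 3 against day 2. For H3067G10 at day 3 they ran from -0.14 to 0.0482. For H3138A02 they ran from -0.0019 to 0.0376 at day 3, -0.18 to 0.0012 for day 3 against day 2 and -0.0397 to 0.28 for day 4 against day 2. Gdf3 levels at day 4 are at background, so its values against day 4 are only as measured. In red, Gdf3 ran from -2.28 to -1.74 for day 3 against day 2 and -2.79 to -2.33 for day 4 against day 3, Pmepa1 from -1.77 to -1.61 for day 4 against day 3 and -1.33 to -0.95 against day 2, and Tdgf1 from -0.13 to 0.37, -2.10 to -1.51 and -2.22 to -1.37 for day 3 against day 2, day 4 against day 3 and day 4 against day 2. In green, Gdf3 ran from -2.25 to -1.81 and -2.62 to -2.08 for day 3 against day 2 and day 4 against day 3, and Tdgf1 from -0.52 to 0.0854 for day 3 against day 2.

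Over all probes, 503 passed at day 2, against 122 with plain subtraction, 126 in the value table, 246 among above-median probes, 294 with the day alone, 81 with separate channels and 225 to 306 without a replicate. At day 3 it was 3070, against 150 with separate channels, 1921 with the day alone and down to 1181 without a replicate, and at day 4 2656, against 160 and down to 1167. For day 3 against day 2 it was 489, and 81 to 266 without a replicate. For day 4 it was 1003 against day 3 and 1000 against day 2, and down to 407 and 357 without a replicate. Of those passing at day 2, 41.9% were higher, against 68.9% with plain subtraction, 74.6% in the value table and 64.2% among above-median probes. In red 161, 273 and 1031 passed over the 3 spans and in green 114, 346 and 936. Without replicate 3 these were 0, 17 and 241 in red and 0, 20 and 186 in green.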
